A study of Mus musculus with 12 samples.

Results

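Hippocampal cultures given the soluble ErbB4 ectodomain (sErbB4) were compared with hippocampal cultures given the γ-secretase inhibitor DAPT. Of the 12 libraries of the experiment, 6 enter this comparison. The libraries were chosen by their treatment label alone, sErbB4 at 20 nM (n = 3) and DAPT at 20 µM (n = 3). All cultures came from the hippocampi of WT mice at postnatal day 4 and had grown for 8 days before any treatment. The sErbB4 cultures received the vehicle overnight and sErbB4 on the next day, and the DAPT cultures received DAPT overnight and no sErbB4. The sources differ on whether DAPT was given overnight or for longer before that addition. RNA was taken on the day of the addition, so sErbB4 was present for a shorter time than DAPT. The remaining 6 libraries, which serve below to take the comparison apart, came from cultures given DAPT and then sErbB4 (DAPT + sErbB4, n = 3) and from cultures given vehicle only (n = 3). Both agents differ between the sides of the comparison, because the sErbB4 cultures had the ligand with γ-secretase active and the DAPT cultures had neither. Within these 6 libraries an effect of adding sErbB4 and an effect of inhibiting γ-secretase cannot be told apart.

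Neuregulin 1 (Nrg1) is a membrane-anchored growth factor of neurons that signals forward, by activating ErbB receptors on neighboring cells, and back into its own cell. Binding of ErbB4 to Nrg1 promotes cleavage of Nrg1 by γ-secretase, and the freed intracellular domain can enter the nucleus. γ-secretase cuts many other membrane proteins as well. The best known is Notch, whose released intracellular domain joins the DNA-binding protein RBPJ and induces Hes and Hey repressors, which hold neural progenitors and glial precursors in an immature state. The comparison asks which transcripts differ between cultures given sErbB4 and cultures given the γ-secretase inhibitor. Back signaling itself was not measured in these libraries.

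Each of the 6 libraries held between 46.1 and 54.4 M (mega) estimated counts, of which 43.4 to 51.8% fell on assembled loci with no gene name, and the ribosomal RNA gene Rn45s took 31.4 to 44.6% of the named counts. Levels are given as CPM, the counts of a gene per M counts on named genes, scaled between libraries by TMM (trimmed mean of M values). The cultures carried the label of neuronal culture, and the defining neuronal markers were present in every library. Rbfox3, which encodes the nuclear antigen NeuN, had 26.2, 26.2 and 28.5 CPM in sErbB4 cultures and 27.5, 27.8 and 27.6 CPM in DAPT cultures. Glial transcripts were also abundant, and Gfap, an astrocyte filament gene, lay between 3720.2 and 5138 CPM. A library could hold fewer cells of a type or less RNA per cell, and in bulk samples these cannot be told apart. One library of the 6 stood apart: sErbB4 replicate 1 lay at −47.8 on the second principal component, against 15.8 and 16.7 for sErbB4 replicates 2 and 3. The nuclear noncoding RNA Malat1 measured 3690.0 CPM in that library, against 971 and 1031 CPM in the other sErbB4 libraries. Without that library the counts of called genes below moved by 1 or 2 in several lists, and from 0 to 3 lower among sodium and calcium channels. The counts of the Notch, vesicle, channel and γ-secretase substrate genes without it are given beside the result. Among the vehicle libraries, used only further below, replicate 3 lay at −30.2 on the same component, against −0.43 and 11.1 for vehicle replicates 1 and 2.

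A gene was called when its adjusted p was under 0.05 (edgeR quasi-likelihood test, Benjamini-Hochberg over 15656 genes) and its log2 fold change was above 0.32 in either direction. By this rule 1579 genes (10.1% of those tested) differed. In sErbB4 cultures 945 genes (6.04%) were higher and 634 (4.05%) were lower than in DAPT cultures. The counts called in each list below are to be read beside these shares. Most differences were moderate, with a median fold of 1.47 for the genes that were higher and 1.40 for those that were lower. A fold above 2 was reached by 190 of the higher genes and by 62 of the lower genes. Without sErbB4 replicate 1, 1813 genes were called, 998 higher and 815 lower, and 1392 of the 1579 genes were still called in the same direction. The values of the 3 sErbB4 and the 3 DAPT libraries did not overlap for 1568 of the 1579 genes. The same held for 34.6% of all genes tested, and since the call rule itself selects separated groups, nothing is read from this count.

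**Figure D1:**
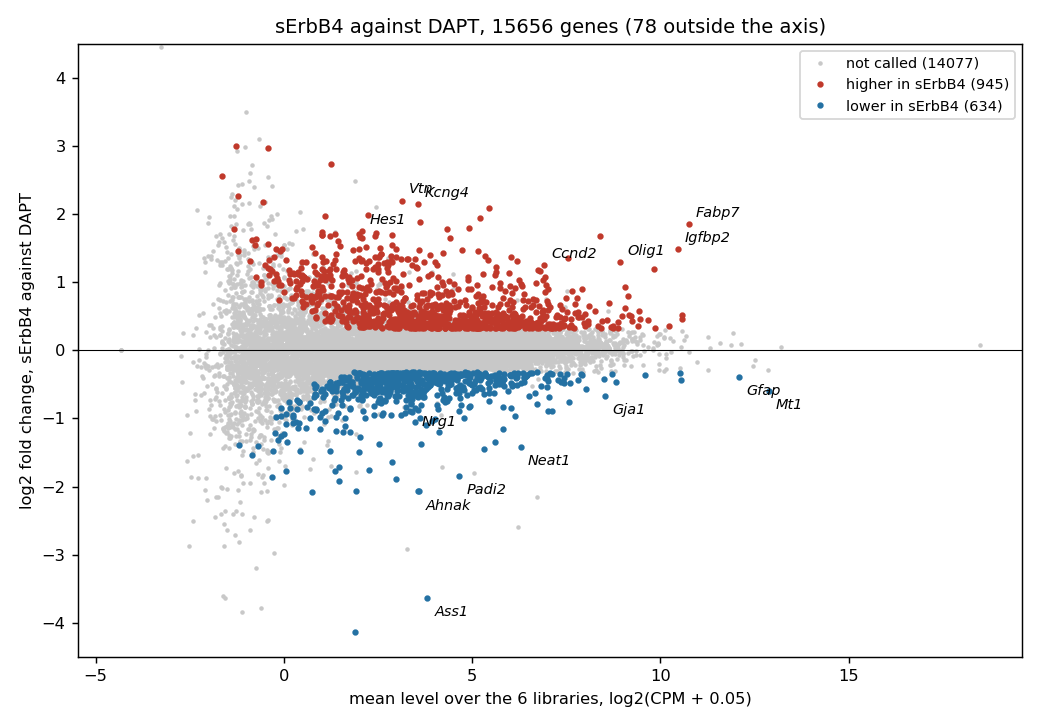
Log2 fold change of sErbB4 against DAPT (vertical axis) by mean level over the 6 libraries (horizontal axis, log2 of CPM plus 0.05), one point per gene. Red points are the 945 genes called higher in sErbB4 cultures and blue points the 634 called lower, and 78 genes lie outside the axis.

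Genes were ranked by fold among called genes that averaged 5 CPM or more and whose groups did not overlap, leaving out Gm-number and Rik symbols. The largest in the higher direction were Vtn, Kcng4, Btbd17 and Slco1c1. Vtn, which encodes the matrix protein vitronectin, had 13.8, 15.4 and 13.8 CPM in sErbB4 cultures and 2.42, 3.58 and 3.36 CPM in DAPT cultures. Its log2 fold change was 2.20 ± 0.12 (SE; adjusted p = 4.9e-07), and the lowest sErbB4 library was far above the highest DAPT library. Kcng4, a modifier subunit of voltage-gated potassium channels, measured 18.4, 20.5 and 18.3 CPM with sErbB4, against 4.29, 4.47 and 4.18 CPM with DAPT (log2 fold change 2.15 ± 0.07, adjusted p = 6.4e-09). Slco1c1, a thyroid hormone transporter of astrocytes and brain endothelium, showed 55.1, 61.4 and 58.2 CPM against 14.5, 15.8 and 15.4 CPM in DAPT cultures (log2 fold change 1.94 ± 0.05). In each of these genes the 3 libraries of a group differed by far less than the groups did, though separated groups were a condition of the ranking.

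The largest absolute difference in level in the higher direction was that of Fabp7, the brain lipid-binding protein of radial glia and a known Notch target (chr10:57784881-57788450, GRCm38). Fabp7 had 2588, 2824 and 2709 CPM in sErbB4 cultures and 788, 692 and 765 CPM in DAPT cultures, a 3.62-fold difference (adjusted p = 5.3e-09). Igfbp2, which binds insulin-like growth factors, followed with 1969, 2201 and 2042 CPM in sErbB4 cultures against 742, 754 and 712 CPM in DAPT cultures (2.81-fold, adjusted p = 2.0e-09). Lcn2, the secreted iron-binding protein lipocalin 2 of reactive glia, had 1112, 1532 and 1161 CPM with sErbB4 and 586, 543 and 538 CPM with DAPT. The next by level were the tubulin genes Tubb2a and Tubb2b (1.44- and 1.37-fold higher) and Olig1.

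The genes lower in sErbB4 cultures were fewer and had smaller differences. Padi2 (chr4:140906344-140952586, GRCm38), which encodes an enzyme that converts arginine residues of proteins to citrulline, had 10.9, 10.9 and 11.0 CPM in sErbB4 cultures and 40.2, 40.5 and 37.0 CPM in DAPT cultures. That is 3.57-fold lower (log2 fold change −1.84 ± 0.04, adjusted p = 1.4e-09), with almost no spread among the sErbB4 libraries. Ahnak, a giant scaffold protein, measured 6.32, 3.26 and 4.17 CPM against 18.6, 18.8 and 19.7 CPM in DAPT cultures. Txnip, an inhibitor of thioredoxin and of glucose uptake, was 2.55-fold lower, and Ptgds, a prostaglandin D synthase, was 2.72-fold lower. By level the largest difference was that of Mt1, a metal-binding metallothionein, with 5809, 6588 and 5512 CPM in sErbB4 cultures and 9293, 9393 and 8364 CPM in DAPT cultures (1.51-fold lower, adjusted p = 9.8e-05).

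For some genes with large fold changes the spread or the counting limits the value. Ass1, the argininosuccinate synthase of the urea cycle, had 3.26, 2.75 and 0.0409 CPM in sErbB4 cultures and 35.8, 32.7 and 9.47 CPM in DAPT cultures (log2 fold change −3.63 ± 0.62). The lowest of these rests on 1 count, and DAPT replicate 3 held less than the other DAPT libraries. Neat1, a nuclear noncoding RNA, had 60.3, 41.0 and 26.2 CPM in sErbB4 cultures and 126, 113 and 103 CPM in DAPT cultures, and its highest sErbB4 value came from replicate 1. Lgi4 shares 44.9% of its annotated exon bases with Fxyd3, so that reads of these neighbors cannot be told apart with certainty.

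**Figure D2:**
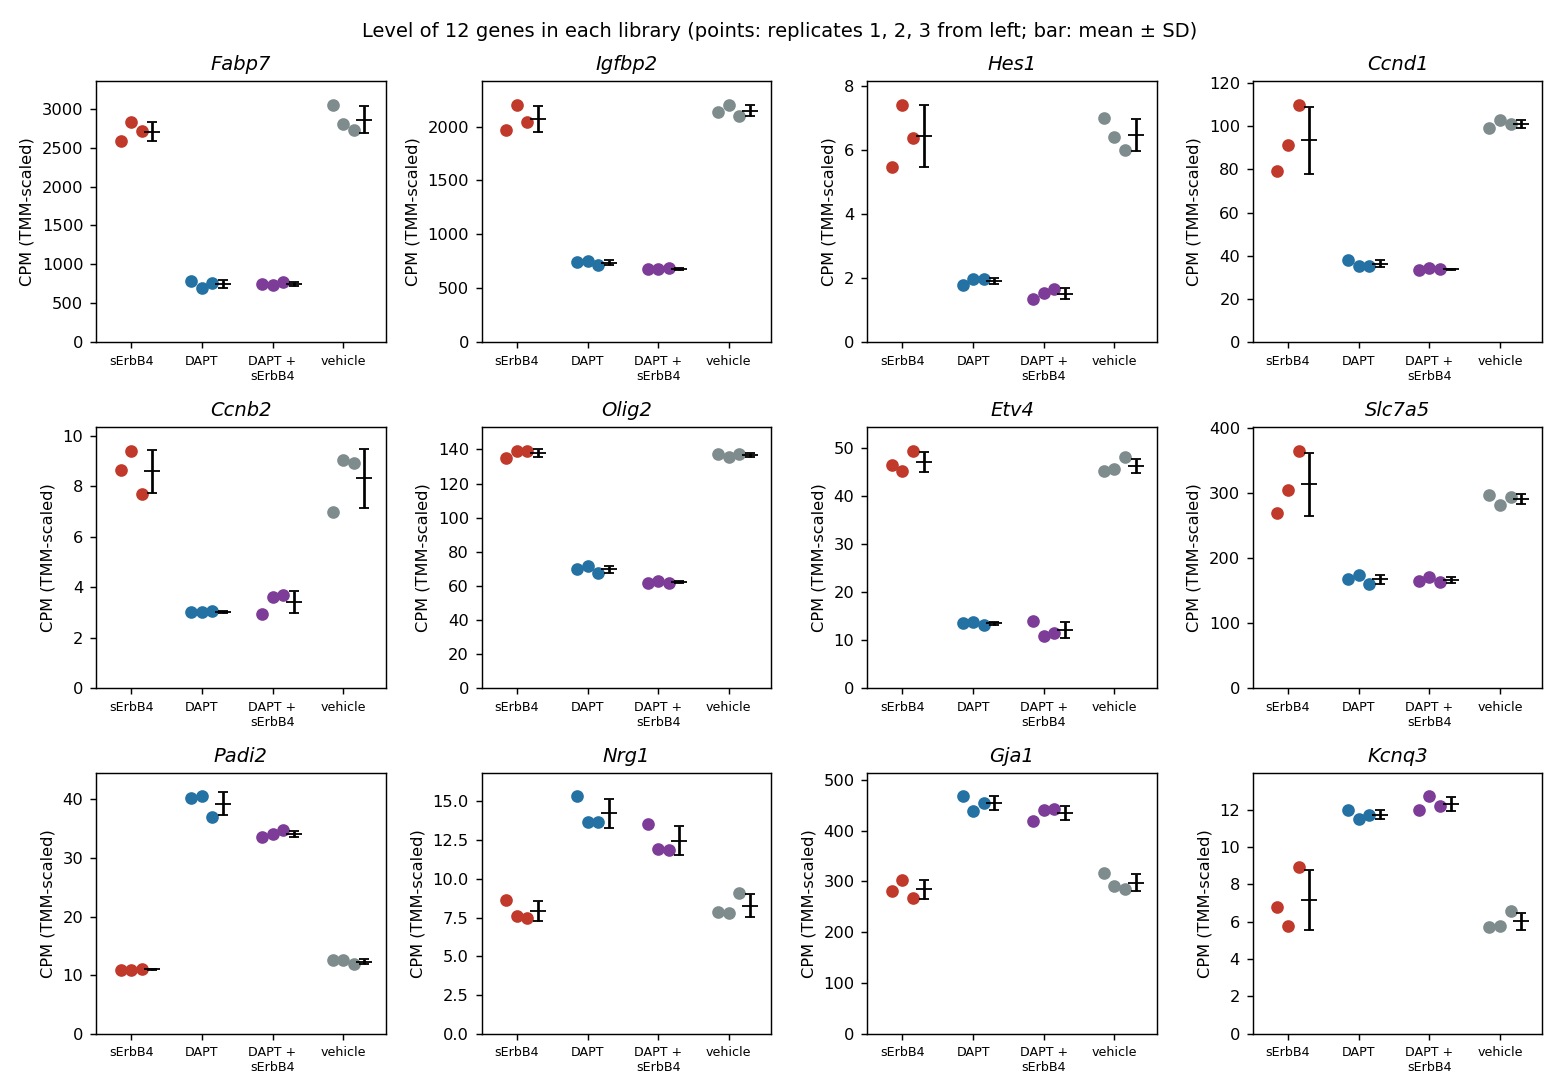
CPM of 12 genes in every library of the 4 conditions, with the mean and SD beside the points. In each panel the sErbB4 points do not overlap the DAPT points, but all 12 genes were called, so nothing is read from this. Fabp7 lies between 2588 and 2824 CPM with sErbB4 and between 692 and 788 CPM with DAPT.

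Notch pathway. Of 26 genes of the pathway tested, 8 were higher and 2 lower in sErbB4 cultures, and the median log2 fold change was 0.23, against 0.00 for all genes tested. Without sErbB4 replicate 1, 6 were higher and 1 lower. The genes that were higher include the classical transcriptional targets Hes1 and Hes5, and 16 of the 26 genes were not called. Hes1 (chr16:30064384-30067796, GRCm38), a repressor of neuronal differentiation, had 5.47, 7.41 and 6.38 CPM in sErbB4 cultures and 1.79, 1.97 and 1.96 CPM in DAPT cultures (3.37-fold, adjusted p = 3.4e-06). Hes5, its relative in neural progenitors, had 3.46, 5.36 and 2.70 CPM in sErbB4 cultures and 1.01, 1.30 and 1.24 CPM in DAPT cultures (3.26-fold, adjusted p = 0.00163). Hes5 varied among the sErbB4 libraries and shares 31.8% of its exon bases with the neighboring Gm20421. Heyl was called at very low levels, 0.403 to 0.543 CPM with sErbB4 and 0 to 0.131 CPM with DAPT, and lost its call in 5 of 21 alternative analyses.

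Genes that act at the membrane in this pathway divided by family member. Lfng, a glycosyltransferase that modifies Notch receptors, had 60.9, 68.2 and 55.8 CPM in sErbB4 cultures against 24.1, 25.7 and 24.0 CPM in DAPT cultures (log2 fold change 1.33 ± 0.07, adjusted p = 1.4e-07). The receptor Notch3, known from mural cells and glia, had 9.22, 8.33 and 10.3 CPM with sErbB4 and 4.02, 4.29 and 4.18 CPM with DAPT. The ligands Jag1 and Dll1 were 1.81- and 1.28-fold higher. The receptor Notch2 moved the other way, with 44.6, 29.0 and 32.0 CPM in sErbB4 cultures against 52.8, 51.7 and 49.6 CPM in DAPT cultures (log2 fold change −0.55 ± 0.12, adjusted p = 0.0074). Numbl, a Numb-related regulator of progenitors, was 1.33-fold lower. Rbpj and the Mastermind coactivators Maml1, Maml2 and Maml3 were not called, with log2 fold changes between −0.28 and 0.13, and the call of Notch1 (0.35) was lost in 7 of 22 alternatives, that without sErbB4 replicate 1 among them.

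The promoters of 2 of the Notch targets are shown because they hold the RBPJ core letters TGGGAA. RefSeq promoters (GRCm38.p6) run from 250 bases before to 50 bases after the transcription start, 5′ to 3′ on the gene's strand, and capitals mark TGGGAA or its reverse complement TTCCCA. Positions count from the start base as 0.
Hes5 (chr4:154960673-154960972, plus strand): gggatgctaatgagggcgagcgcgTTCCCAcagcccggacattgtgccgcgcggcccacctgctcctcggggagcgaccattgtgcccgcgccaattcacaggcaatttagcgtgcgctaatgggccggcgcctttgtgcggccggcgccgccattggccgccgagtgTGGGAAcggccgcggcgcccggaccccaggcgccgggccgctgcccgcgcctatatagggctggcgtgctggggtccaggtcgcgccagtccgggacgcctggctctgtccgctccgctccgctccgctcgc
Lfng (chr5:140607091-140607390, plus strand): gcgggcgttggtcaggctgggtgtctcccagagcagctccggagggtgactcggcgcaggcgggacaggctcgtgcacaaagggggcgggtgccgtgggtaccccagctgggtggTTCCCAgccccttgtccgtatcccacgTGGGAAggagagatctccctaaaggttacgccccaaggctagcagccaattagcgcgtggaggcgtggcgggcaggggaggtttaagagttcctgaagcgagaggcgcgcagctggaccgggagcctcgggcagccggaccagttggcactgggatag
In Hes5 the matches begin at -226 and -82, and in Lfng at -135 and -108. Of the 26 promoters matched to 21 of the Notch genes, 26.9% held these letters, against 23.4% of the 15137 promoters of all genes tested. Of the 7 promoters matched to 6 of the 8 higher Notch genes, 2 held the letters, those printed here. The promoters of Notch3, Jag1, Dll1 and Notch1 held none, and no promoter was available for Hes1 and Heyl. A match is a description of these windows only.

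Cell division. Genes of mitosis were nearly all higher in sErbB4 cultures, while those of S phase and of G1 were higher in part. Of 30 mitosis and kinetochore genes, 29 were higher and 0 lower, with a median log2 fold change of 1.16. Without any one of the 6 libraries, 28 or 29 of them were still called. Ccnb2, a mitotic cyclin, had 8.65, 9.42 and 7.69 CPM in sErbB4 cultures and 3.00, 2.99 and 3.07 CPM in DAPT cultures (2.84-fold, adjusted p = 8.5e-06). Aurkb, the kinase of the chromosomal passenger complex, had 4.75, 7.09 and 6.01 CPM against 1.99, 1.97 and 1.57 CPM in DAPT cultures (3.26-fold). Mki67, the proliferation marker Ki-67, had 11.0, 8.75 and 10.5 CPM with sErbB4 and 5.19, 4.25 and 4.93 CPM with DAPT (2.09-fold). The levels are low, and since these genes were called, nothing is read from the separation of their groups. The only member not called was Cdc25c (2.05, 1.76 and 1.72 CPM with sErbB4 and 0, 0.849 and 0.784 CPM with DAPT, adjusted p = 0.0718).

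Of 28 genes of DNA replication and S phase, 20 were higher and 0 lower, with a median of 0.55. Tk1, the thymidine kinase of S phase, had 4.47, 6.48 and 7.94 CPM in sErbB4 cultures and 1.68, 2.55 and 1.83 CPM in DAPT cultures (3.14-fold, adjusted p = 2.6e-04). Mcm5, a subunit of the replicative helicase, was 2.28-fold higher, while the polymerase clamp Pcna differed by 1.26-fold. This list depended more on single libraries, and 13 genes were called without sErbB4 replicate 3. Of 21 genes of G1 control and growth arrest, 6 were higher and 3 lower. Ccnd1, a D-type cyclin that drives exit from G1, had 79.2, 91.4 and 109.9 CPM in sErbB4 cultures and 38.1, 35.4 and 35.2 CPM in DAPT cultures (2.58-fold, adjusted p = 1.9e-06), and 23.4% of its exon bases are shared with another annotated gene. Its relative Ccnd2 had 153, 158 and 199 CPM against 71.1, 71.4 and 71.7 CPM with DAPT. The lower genes were the growth arrest genes Gadd45g, Gadd45b and Btg1, and Gadd45g had 50.8, 51.8 and 44.3 CPM with sErbB4 and 69.6, 77.7 and 74.9 CPM with DAPT.

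Promoters of 2 mitotic genes are shown because the list as a whole shared a sequence feature that the choice of its genes did not use. The cell cycle homology region, TTTGAA, is the element through which the DREAM and MuvB complexes bind mitotic promoters. Capitals mark TTTGAA or its reverse complement TTCAAA.
Cdc20 (chr4:118437294-118437593, minus strand): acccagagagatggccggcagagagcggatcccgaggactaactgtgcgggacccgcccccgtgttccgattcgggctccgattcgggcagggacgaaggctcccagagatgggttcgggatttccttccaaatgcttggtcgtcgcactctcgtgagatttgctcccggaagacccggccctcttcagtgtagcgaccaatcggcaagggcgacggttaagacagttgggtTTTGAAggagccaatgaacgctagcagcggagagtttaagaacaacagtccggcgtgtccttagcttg
Cdk1 (chr10:69352863-69353162, minus strand): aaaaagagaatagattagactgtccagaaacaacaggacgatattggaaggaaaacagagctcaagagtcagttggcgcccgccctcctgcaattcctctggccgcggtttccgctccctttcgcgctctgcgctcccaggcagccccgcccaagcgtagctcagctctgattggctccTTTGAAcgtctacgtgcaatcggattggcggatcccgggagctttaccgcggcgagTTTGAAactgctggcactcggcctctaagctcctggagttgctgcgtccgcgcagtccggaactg
The match lies at -18 in Cdc20, which encodes an activator of the anaphase-promoting complex, and at -71 and -15 in Cdk1, the mitotic kinase. Of 25 promoters matched to 24 of the mitosis genes, 18 (72.0%) held the letters, against 11.9% of the promoters of all genes tested. The share was 17.7% for the promoters of all 945 genes higher in sErbB4 cultures and 10.9% for those of the 634 lower genes. In the S phase list 14.3% of 28 promoters held it.

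Radial glia and glial precursors. Among 17 genes of radial glia and neural stem cells, 5 were higher (Fabp7, Tnc, Nes, Ptprz1 and Slc1a3) and 2 lower (Prom1 and Id4), with a median of −0.07. Nes, the intermediate filament nestin of progenitors, had 102, 101 and 103 CPM in sErbB4 cultures and 77.9, 75.5 and 73.1 CPM in DAPT cultures. Prom1, a membrane protein also used as a stem cell marker, had 10.2, 10.8 and 10.3 CPM with sErbB4 and 23.9, 23.2 and 24.7 CPM with DAPT (2.30-fold lower, adjusted p = 9.8e-08). The list therefore did not move in a single direction. Of 14 proneural factors Eomes and Insm1, both of intermediate progenitors, were higher and 0 were lower, and of 11 genes of the PRC2 histone methyltransferase complex only Ezh1 was called (1.40-fold lower).

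Of 14 oligodendrocyte precursor genes, 7 were higher and 2 lower, with a median of 0.30, and their summed level ran from 2134 to 2269.7 CPM in sErbB4 cultures and from 1425 to 1538 CPM in DAPT cultures. Olig1, a lineage transcription factor, had 635, 719 and 725 CPM with sErbB4 and 284, 292 and 269 CPM with DAPT (2.46-fold, adjusted p = 2.0e-08). Its partner Olig2 had 135, 139 and 139 CPM against 69.9, 71.4 and 67.4 CPM in DAPT cultures (1.98-fold). The receptor of platelet-derived growth factor Pdgfra, a marker of the precursors, was 1.40-fold higher. Gpr17, which marks precursors committed to differentiate, ran against these genes with 123, 116 and 88.6 CPM in sErbB4 cultures and 152, 142 and 139 CPM in DAPT cultures. Of 14 mature oligodendrocyte and myelin genes, 0 were higher and 3 were lower: Enpp6, an early differentiation marker (1.52-fold lower), and the myelin lipid enzymes Fa2h and Ugt8a. Without sErbB4 replicate 2, 5 of the 14 were called lower.

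Astrocytes and vessel-associated cells. The 19 astrocyte genes split, with 6 higher, 5 lower and a median of −0.13. The higher genes were Slco1c1, Aldoc, Fgfr3, Slc4a4, Aldh1l1 and Kcnj10. Aldoc, a glycolytic aldolase, had 229, 216 and 231 CPM in sErbB4 cultures and 134, 127 and 136 CPM in DAPT cultures (1.70-fold, adjusted p = 1.1e-06). The lower genes were Gfap, Agt and the connexin genes Gja1, Gjb6 and Gjb2. Gja1, which encodes connexin 43, had 282, 304 and 267 CPM with sErbB4 and 468, 439.6 and 454 CPM with DAPT (1.60-fold lower, adjusted p = 6.3e-06), and Gjb6, connexin 30, was 2.05-fold lower. Gfap had 3720.2, 3927 and 3724 CPM in sErbB4 cultures against 5138, 5002 and 4775 CPM in DAPT cultures, a 1.31-fold difference. The count of 6 and 5 was the same without any one of the 6 libraries.

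Of 13 genes of pericytes, smooth muscle and fibroblasts, 6 were higher, Vtn, Notch3, Tagln, Rgs5, Col1a1 and Pdgfra, and 2 were lower. Tagln shares 67.9% of its exon bases with Pcsk7 and Gm48529. Rgs5, a signaling regulator of pericytes, had 4.51, 4.02 and 4.66 CPM with sErbB4 and 2.73, 2.15 and 2.65 CPM with DAPT. The lower genes were the small proteoglycans of fibroblasts: Dcn had 13.5, 14.9 and 15.4 CPM in sErbB4 cultures and 23.9, 22.8 and 23.8 CPM in DAPT cultures. Endothelial genes gave 0 calls of 9 tested. Among 15 microglia genes only the fractalkine receptor Cx3cr1 was called (2.10-fold higher), a share of 6.67% against 6.04% of all genes tested. The summed level of the microglia genes was 247 to 264 CPM with sErbB4 and 259 to 265 CPM with DAPT. Among 34 genes of the extracellular matrix there were 14 higher and 2 lower ones (median 0.29). Col16a1, a minor collagen, had 24.6, 21.3 and 27.9 CPM with sErbB4 and 12.8, 12.5 and 11.4 CPM with DAPT, and Hapln1, the link protein of hyaluronan nets, was 1.97-fold higher.

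**Figure D3:**
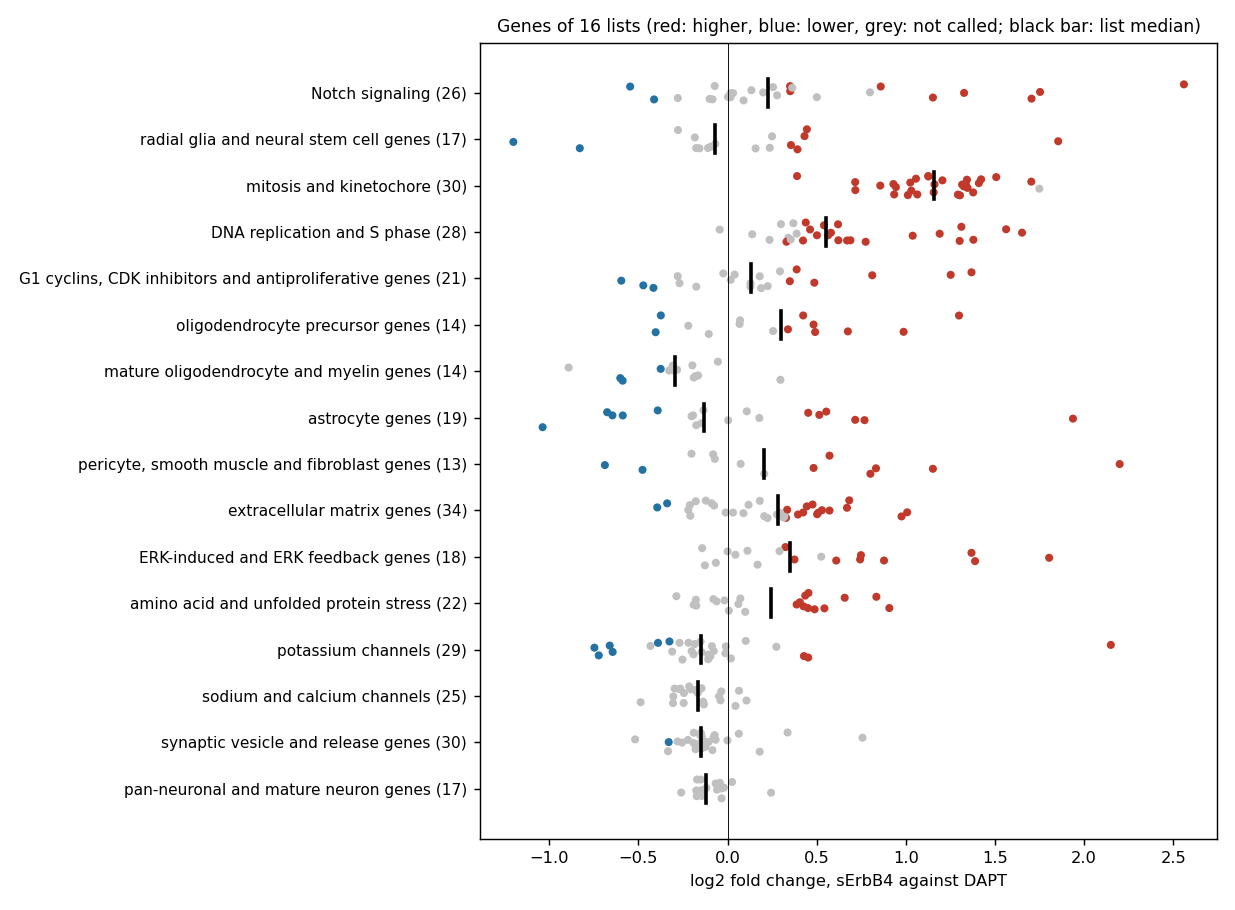
Log2 fold change of sErbB4 against DAPT for every tested gene of 16 lists, one row per list with the number of genes tested in brackets, and a black bar at the list median. The mitosis row lies wholly to the right (median 1.16), the astrocyte row spreads to both sides, and the pan-neuronal row (median −0.12) has no called gene.

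Growth factor and nutrient signaling. Of 18 genes induced by ERK or feeding back on it, 9 were higher and 0 lower, with a median of 0.35. Etv4, a transcription factor downstream of receptor tyrosine kinases, had 46.5, 45.2 and 49.5 CPM in sErbB4 cultures and 13.6, 13.7 and 13.2 CPM in DAPT cultures (3.49-fold, adjusted p = 2.4e-08). Dusp6, the phosphatase that switches ERK off, had 54.6, 57.8 and 64.5 CPM against 22.5, 22.7 and 22.4 CPM with DAPT (2.62-fold). The Sprouty inhibitors Spry1, Spry2 and Spry4 were higher too. Of 21 immediate early genes, which also respond to ERK and to neuronal activity, 0 were higher and 3 lower. These were Nr4a3, Nr4a1 and Egr3, and without sErbB4 replicate 3, in which Fos measured 41.0 CPM against 22.9 and 24.5 CPM in the other sErbB4 libraries, 8 were called lower (5 without sErbB4 replicate 2). Fos itself was not called, with 34.5, 32.9 and 32.3 CPM in DAPT cultures.

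Of 13 genes of the insulin-like growth factor system, the binding proteins Igfbp2, Igfbp3 and Igfbp4 were higher and the receptor Igf1r was lower. Igfbp3 had 473, 560.0 and 503 CPM in sErbB4 cultures and 170.3, 154 and 155 CPM in DAPT cultures (3.20-fold, adjusted p = 2.0e-08). Of 22 genes of amino acid and unfolded protein stress, 11 were higher and 0 lower, and those called are known for amino acid uptake and serine synthesis or as targets of Atf4. Slc7a5, a large neutral amino acid transporter, had 269, 305 and 365 CPM with sErbB4 and 168, 173 and 159.7 CPM with DAPT (1.88-fold, adjusted p = 2.0e-05). Its partner chain Slc3a2 was 1.58-fold higher, the serine synthesis enzymes Psat1 and Phgdh 1.40- and 1.37-fold, and Atf4 itself 1.31-fold. Of 20 cholesterol genes, 0 were called in either direction.

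Neuronal genes. The genes that define neurons differed little. Of 17 pan-neuronal and 18 immature neuron genes, 0 were called, with medians of −0.12 and −0.09. Map2, the dendritic microtubule protein, had 135, 127 and 141 CPM in sErbB4 cultures and 148, 153 and 152 CPM in DAPT cultures (log2 fold change −0.17 ± 0.05), a separation of the groups below the fold limit. Of 30 synaptic vesicle genes, 1 was lower (Slc17a6, a vesicular glutamate transporter) and 26 had a negative log2 fold change, with a median of −0.15. Of 25 sodium and calcium channel genes, 0 were called and 22 were negative. Without sErbB4 replicate 1, 3 genes of each of these lists were called lower, and the single call among the vesicle genes was lost without sErbB4 replicate 3 or DAPT replicate 2. Among 30 postsynaptic genes 1 was higher (3.33%) and 2 were lower (6.67%), against 6.04% and 4.05% of all genes tested. The glutamate receptor Grm5 was the higher gene and the adhesion protein Nlgn1 was among the lower. The call of Grm5 was lost in 9 of 22 alternatives.

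Potassium channels held the clearest changes among excitability genes, with 3 of 29 higher (2 without sErbB4 replicate 1) and 6 lower. Kcnq3, a subunit of the M current, had 6.80, 5.75 and 8.92 CPM in sErbB4 cultures and 12.0, 11.5 and 11.7 CPM in DAPT cultures (1.65-fold lower, adjusted p = 0.00131). Kcna4, an A-type channel, and Kcnn2, a calcium-activated channel, were 1.68- and 1.58-fold lower, and the leak channel Kcnk2 had 29.9, 32.1 and 30.9 CPM with sErbB4 against 50.8, 47.5 and 47.2 CPM with DAPT. Those that were higher were Kcng4, the glial inward rectifier Kcnj10, and Kcnt1 (1.35-fold). Among 18 interneuron genes, Reln, a secreted guidance protein, and Pvalb were 1.40- and 1.27-fold lower, and 1 gene was higher. These shares were 11.1% lower and 5.56% higher, against 4.05% and 6.04% of all genes tested. Of 11 dentate granule cell genes only Bcl11b was called (higher, 9.09% of the list). Its groups overlapped (12.0, 12.9 and 15.2 CPM with sErbB4 and 9.63, 12.4 and 9.86 CPM with DAPT).

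Neuregulin, its partners and the protease. The 7 γ-secretase subunit genes tested gave 0 calls, with log2 fold changes from −0.31 to 0.19. Of 14 neuregulin, ErbB receptor and shedding protease genes, 1 was higher and 2 were lower. Nrg1 itself (chr8:31814551-32884029, GRCm38) had 8.65, 7.63 and 7.49 CPM in sErbB4 cultures and 15.3, 13.7 and 13.7 CPM in DAPT cultures (1.80-fold lower, adjusted p = 2.9e-05). The protease gene Bace2 was 1.53-fold lower, while Bace1, which makes the first cut in Nrg1, was not called (log2 fold change 0.07). Hbegf, an ErbB ligand, had 40.8, 46.2 and 55.4 CPM with sErbB4 and 28.9, 27.3 and 27.9 CPM with DAPT. Erbb4 was not called, with overlapping groups of 6.32, 4.66 and 7.32 CPM and 7.02, 6.39 and 7.15 CPM in DAPT cultures. Among 20 other γ-secretase substrates, Sdc3, Efnb1, Ngfr, Ephb2 and Ptprz1 were higher (0.39 to 0.57 on the log2 scale) and 0 were lower (2 without sErbB4 replicate 1). Ngfr lost its call in 16 of 22 alternatives.

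The vehicle libraries show where each side of the comparison lay. These comparisons share libraries with sErbB4 against DAPT, so their values are given side by side and no agreement among them is read. The exposure to sErbB4 was shorter than that to DAPT. Against vehicle, DAPT cultures had 1813 called genes (11.6% of 15656), 730 higher (4.66%) and 1083 lower (6.92%). In sErbB4 cultures 5 genes were called against vehicle (0.0319%), with 1184 genes at an unadjusted p under 0.05. DESeq2 called 2 genes and limma 4 in that comparison. Without vehicle replicate 3, 1784 genes were called in DAPT cultures and 4 in sErbB4 cultures. Fabp7 had a log2 fold change of −0.08 for sErbB4 against vehicle and −1.93 for DAPT against vehicle, and its vehicle libraries measured 3051, 2805 and 2725 CPM. Padi2 had −0.17 and 1.67, with 12.6, 12.5 and 11.8 CPM in vehicle cultures. Nrg1 had −0.06 and 0.78, and Etv4 0.02 and −1.78. Of the 30 mitosis genes, 0 were called in sErbB4 against vehicle and 29 were lower in DAPT against vehicle. Most genes of the neuronal lists were positive against vehicle on both sides. Both contrasts use the same vehicle libraries, so nothing is read from the shared direction. Of 17 pan-neuronal genes, 16 were positive in sErbB4 against vehicle (median 0.14, 0 called) and 16 in DAPT against vehicle (median 0.26, 5 called higher). Of 30 synaptic vesicle genes, 27 were positive in each (medians 0.13 and 0.29), with 0 called for sErbB4 and 10 called higher for DAPT.

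**Figure D4:**
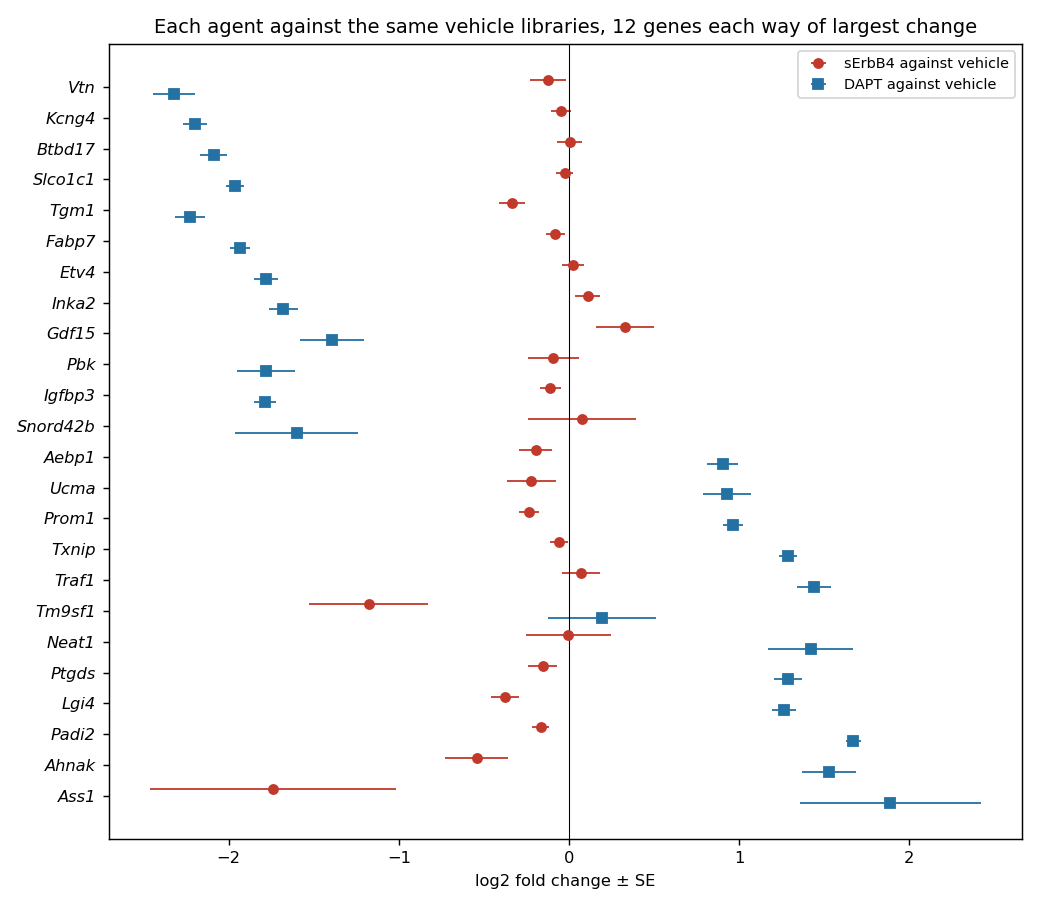
Log2 fold change ± SE of sErbB4 against vehicle (red circles) and of DAPT against vehicle (blue squares) for 12 genes in each direction. They are those of largest fold in sErbB4 against DAPT among called genes of at least 5 CPM without overlap of the groups, Gm-number and Rik symbols left out. Vtn lies at −0.12 for sErbB4 and −2.32 for DAPT. Tm9sf1 lies at −1.18 for sErbB4 and 0.19 for DAPT and was called in neither of these contrasts. Both contrasts use the same vehicle libraries.

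The 5 genes called in sErbB4 against vehicle were Slc30a3 (higher) and Cox20, Zfp791, Htd2 and Gm15787 (lower). Slc30a3, the zinc transporter of synaptic vesicles, had 10.3, 10.5 and 9.98 CPM in sErbB4 cultures and 7.28, 7.47 and 7.46 CPM in vehicle cultures (log2 fold change 0.47, adjusted p = 0.0186). It had 9.86, 10.1 and 10.3 CPM in DAPT cultures and was not called against them. Zfp791, a zinc finger gene, had 231, 191 and 204 CPM with sErbB4, 337, 316 and 271 CPM with DAPT and 342, 389.7 and 344 CPM with vehicle. It was lower in sErbB4 cultures than in either (log2 fold changes −0.56 against DAPT and −0.78 against vehicle).

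Htd2 was listed at 0 in all 3 sErbB4 libraries and at 2.65, 3.40 and 3.27 CPM in DAPT cultures, and against a floor of 3 counts per library it was at least 25.3-fold lower. Gm15787 was likewise at 0 with sErbB4 and at 0.351, 0.402 and 0.621 CPM with DAPT, at least 3.73-fold lower. Cox20, a cytochrome oxidase assembly factor, had 8.25, 8.04 and 8.06 CPM with sErbB4 and 13.6, 17.2 and 12.8 CPM with vehicle. It had 7.02, 5.94 and 7.09 CPM with DAPT and 7.00, 7.13 and 7.36 CPM with DAPT + sErbB4. It was called lower than vehicle in both of these as well, and was not called between sErbB4 and DAPT cultures. Cox20 shares 91.1% of its exon bases with Hnrnpu. A value of 0 in every library of one group can come from how the assembled transcripts were assigned to genes, which was not tested.

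DAPT + sErbB4 against vehicle uses none of the 6 libraries and exchanges the presence of DAPT, so it gives a second look at the same genes in other cultures. There, 2361 genes were called (15.1%), 1056 higher and 1305 lower, and 2358 without vehicle replicate 3. Of the 945 genes higher in sErbB4 than in DAPT cultures, 765 (81.0%) were lower in DAPT + sErbB4 than in vehicle cultures, 1 was higher and 179 were not called. Of the 634 genes lower in sErbB4 cultures, 309 (48.7%) were higher in DAPT + sErbB4 cultures, 3 were lower and 322 were not called. These shared genes make up 58.6% of the 1305 lower and 29.3% of the 1056 higher genes of the second comparison. Over the 10901 genes with at least 5 CPM, the log2 fold changes of the comparisons had a Pearson r of −0.74 and a Spearman rho of −0.72, as a description across genes, which are not independent replicates.

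**Figure D5:**
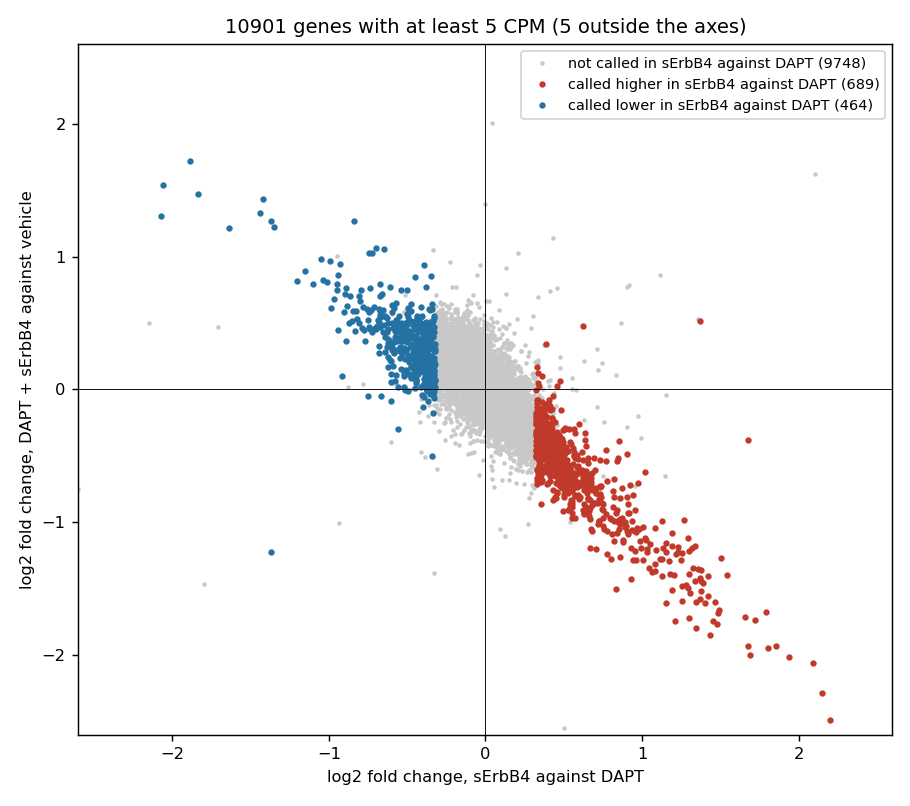
Log2 fold change of DAPT + sErbB4 against vehicle (vertical axis) by that of sErbB4 against DAPT (horizontal axis), which share no library, for 10901 genes. Most red points (called higher) lie below 0 and most blue points (called lower) above 0, and 5 genes lie outside the axes.

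Neuronal lists had more called genes in this second comparison. Of 17 pan-neuronal genes 10 were higher in DAPT + sErbB4 than in vehicle cultures (58.8%), against 0 called between sErbB4 and DAPT cultures. Of 30 synaptic vesicle genes 18 were higher (60.0%), against 1 called between sErbB4 and DAPT cultures. Of all genes tested, 6.75% were higher in DAPT + sErbB4 than in vehicle cultures. Snap25, a protein of vesicle fusion, had 221, 214 and 211 CPM in DAPT + sErbB4 cultures and 137, 149.7 and 155 CPM in vehicle cultures. Its levels in sErbB4 cultures were 161, 173 and 185 CPM and in DAPT cultures 188, 193 and 193 CPM. Whether the comparisons differ in these genes was not tested.

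Only 4 genes were called in the same direction in both comparisons, which sets the presence of sErbB4 on top in each: Diablo, Tm9sf1 and Pvalb were lower, and Mmaa was higher. The sErbB4 against DAPT call was lost in 3 of 22 alternatives for Tm9sf1, in 3 for Mmaa and in 4 for Pvalb. Pvalb, the calcium buffer of fast-spiking interneurons, had 4.51, 4.85 and 4.42 CPM with sErbB4 and 5.46, 5.90 and 6.14 CPM with DAPT, and 3.44, 3.69 and 3.88 CPM with DAPT + sErbB4 and 5.52, 5.11 and 4.96 CPM with vehicle. Mmaa, a protein of vitamin B12 metabolism, had 7.04, 8.65 and 8.18 CPM with sErbB4 and 4.76, 6.17 and 4.70 CPM with DAPT, and 6.04, 9.12 and 7.50 CPM with DAPT + sErbB4 and 5.24, 6.18 and 5.01 CPM with vehicle. Within each pair the values of Pvalb did not overlap, while those of Mmaa did in the second. Diablo, a mitochondrial regulator of apoptosis, had 0.564, 0.383 and 0.205 CPM with sErbB4 against 9.67, 5.77 and 5.19 CPM with DAPT, but vehicle replicate 3 measured 0.956 CPM against 7.24 and 9.27 CPM in the other vehicle libraries, and 40.9% of its exon bases are shared with other genes, B3gnt4 among them.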

How the data were processed

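RNA of 12 cultures (NEBNext libraries after RNeasy Micro extraction) was sequenced. The processing notes and methods name Trimmomatic for trimming, HISAT2 for alignment (mm10), StringTie for transcript assembly and IsoformSwitchAnalyzeR for gene values, with FastQC, MultiQC and limma also listed. The table the authors deposited holds estimated counts per assembled gene, not normalized between libraries; versions and strandedness are not given in the sources used here.

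Estimated counts were rounded, the 1976 of 21312 loci without a gene name were left out, and 15656 genes passed edgeR's expression filter. All 12 libraries entered a fit with 4 conditions (edgeR 4.0.16, TMM, quasi-likelihood F test, 8 residual degrees of freedom). Calls required an adjusted p under 0.05 and a log2 fold change above 0.32 in either direction. Per the methods, the 3 libraries of a condition are 3 platings from several mice and litters; which litter gave which library is not given in the sources used here. Same-numbered DAPT and vehicle libraries had correlated deviations (r = 0.238, 0.295 and 0.122), which met the rule used here for pairing (every r over 0.1). In the other comparisons made, at least 1 pair did not reach it. The labels do not say that equal numbers share a plating, and sErbB4 replicate 1 with vehicle replicate 3 reached r = 0.376. Each SE comes from that fit and includes the spread between libraries, while the floors cover counting error only. The fit was tested on simulated data.

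Genes named in the text are the 12 of largest fold and 6 of largest CPM difference in each direction (mean of at least 5 CPM). Up to 4 per list and genes of a fixed set were added. The fixed set was Nrg1, Erbb4, Notch1, Hes1, Hes5, Fos, Bdnf and Prox1, and values of Bdnf are not given. The rule's genes of like sign in both comparisons without shared libraries were extended below 5 CPM, and other genes were named, after their values were seen. Members, lists (30, with 549 genes tested) and tests were chosen with earlier results of these data known. Alternatives were RLE scaling, other filters, DESeq2 1.42.0, limma 3.58.1 on log2(CPM + 2), fewer libraries, a replicate block and leaving out each library. Promoters came from RefSeq, gene positions from GENCODE. Some genes of the lists are not reported here by name.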

Additional observations from a re-analysis of the deposited data

Results flagged for a closer look

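Loci without a gene name were left out of the report's tests. With them kept in the fit, 150 of the 1956 tested (7.67%) were called between sErbB4 and DAPT cultures, 94 higher and 56 lower. They have no annotation here and no value of a single locus is given.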

How the results depend on the processing

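With no fold limit, 3268 genes passed the adjusted p in sErbB4 against DAPT, 1853 higher and 1415 lower, with 3706 in DAPT against vehicle and 4502 in DAPT + sErbB4 against vehicle. Leaving out a library in turn gave 1380 to 1813 genes in sErbB4 against DAPT (795 to 998 higher, 547 to 815 lower), 1525 to 1857 in DAPT against vehicle, 2011 to 2420 in DAPT + sErbB4 against vehicle and 1 to 5 in sErbB4 against vehicle. In the last, the count was 2 with DESeq2, 2 with the replicate block and 0 with only the compared libraries. Same-numbered sErbB4 and DAPT libraries had correlations of deviations of −0.04, −0.12 and 0.13, which did not meet the rule for pairing. The replicate block gave 1535 called genes there in place of 1579. In DAPT against vehicle, where same-numbered libraries met that rule, the replicate block gave 1750 in place of 1813.

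Of 104 called named genes, 83 were called in all 22 alternatives and 21 were lost in at least 1, with Bcl11b (17), Cdc6 (16), Ngfr (16) and Timp1 (15) lost most often. Direction turned only in 3 uncalled genes: leaving out a library moved the log2 fold change of Cacnb3 between −0.092 and 0.0068 (without sErbB4 replicate 1), of Hmgcs1 between −0.028 (without sErbB4 replicate 3) and 0.14, and of Prox1 between −0.061 and 0.047 (without sErbB4 replicate 2; 0.016 without DAPT replicate 3), and limma gave −0.0052 for Hmgcs1. The counts of each list without sErbB4 replicate 1 were added after seeing the data. Counts set the limit for Heyl, which had 10, 17 and 11 counts in sErbB4 and 0, 2 and 4 in DAPT cultures.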
